A study of Mus musculus with 12 samples.

Results

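The open chromatin described here lies around 8 genes of mast cells and basophils, Cpa3, Mcpt8, Ms4a2, Hdc, Fcer1a, Mitf, Il1rl1 and Prg2. A region was counted as a member if it overlapped the body of one of these genes extended by 20 kb on each side, with gene bodies from the GENCODE M21 basic set on the mouse genome GRCm38. This rule found 73 of the 121336 regions of the count table. The windows of Hdc and Mitf held 16 regions each, that of Ms4a2 11, that of Mcpt8 10, that of Il1rl1 8, and those of Cpa3 and Prg2 6 each. The window of Fcer1a held 0 regions, and the region nearest to its start lay 86.3 kb away, so no value can be given for this gene. Accessibility had been measured by ATAC-seq, in which the transposase Tn5 cuts open DNA, in sorted bone marrow cells of adult C57BL/6 littermates after enrichment for c-Kit. LSK are Lin- Sca-1+ c-Kit+ cells, which contain the stem cells, and GMP are Lin- Sca-1- c-Kit+ CD16/32+ cells, a gate for progenitors of granulocytes and monocytes. Animals were either wild type (WT) or of the genotype UREd/d (called URE), a germline deletion of the upstream regulatory element, an enhancer of Spi1, the gene of the transcription factor PU.1. Each of the 4 groups (WT-LSK and URE-LSK in LSK, WT-GMP and URE-GMP in GMP) had 3 libraries, and the study's methods give 3 mice per genotype and cell type. The deletion is present in every cell of the URE mice, and neither gate is specific for mast cells or basophils. A lower count in such bulk libraries can come from fewer cells of a type or from less open chromatin per cell, and these cannot be told apart.

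Mast cells and basophils arise from bone marrow progenitors, carry the high-affinity IgE receptor and release histamine and proteases from their granules. Mitf encodes a transcription factor that binds E-box and M-box motifs and is needed for mast cell development. Ms4a2 and Fcer1a encode the beta and alpha chains of the IgE receptor, and Il1rl1 encodes ST2, the receptor for IL-33. Hdc encodes histidine decarboxylase, which makes histamine. Cpa3 encodes a carboxypeptidase of mast cell granules, Mcpt8 a basophil protease, and Prg2 the major basic protein of eosinophil granules, which basophils also carry. PU.1 and GATA factors act together in mast cell precursors, and C/EBP and RUNX factors work beside PU.1 in myeloid progenitors.

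The regions on which the results turn most are shown first as sequence. A region is named by its gene and by the distance in kb of its centre from the nearest start site of that gene, counted positive in the direction of transcription. Each sequence is the central 300 bases of the region on the + strand of GRCm38. Capitals mark matches on either strand to 1 of 6 motifs. The letters searched were GAGGAAGT for PU.1 and TTGCNNAA for the C/EBP family. For the GATA factors they were AGATAA, and for the RUNX factors they were AACCACA. The E-box was searched as CACGTG, and the M-box, which differs from it by a single letter, was searched as CATGTG. Prg2 -12.9 (chr2:84967392-84967691), Il1rl1 -19.4 (chr1:40409990-40410289) and Hdc +16.3 (chr2:126602194-126602493) are shown because they were called lower in URE-LSK and not in URE-GMP. Mitf +59.7 (chr6:97866625-97866924), Mitf -0.2 (chr6:97929480-97929779) and Cpa3 +44.1 (chr3:20197933-20198232) are shown because they fell in both URE groups. Hdc +12.3 (chr2:126606191-126606490) and Mcpt8 -0.1 rose in both. Mcpt8 is read on the - strand, and of its promoter region only the 158 bases before the gene record are given (chr14:56085274-56085431).
Prg2 -12.9: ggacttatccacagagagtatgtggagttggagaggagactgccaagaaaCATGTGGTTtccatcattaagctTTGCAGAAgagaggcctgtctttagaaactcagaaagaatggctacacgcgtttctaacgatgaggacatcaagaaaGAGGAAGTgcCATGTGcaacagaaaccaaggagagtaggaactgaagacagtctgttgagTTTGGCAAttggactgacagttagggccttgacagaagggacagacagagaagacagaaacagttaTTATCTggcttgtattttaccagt
Il1rl1 -19.4: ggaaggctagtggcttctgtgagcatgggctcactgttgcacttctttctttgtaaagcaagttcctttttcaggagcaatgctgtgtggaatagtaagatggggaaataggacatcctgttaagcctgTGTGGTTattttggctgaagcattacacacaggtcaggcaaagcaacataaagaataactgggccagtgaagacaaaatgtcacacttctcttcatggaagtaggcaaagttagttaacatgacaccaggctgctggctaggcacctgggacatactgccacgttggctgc
Hdc +16.3: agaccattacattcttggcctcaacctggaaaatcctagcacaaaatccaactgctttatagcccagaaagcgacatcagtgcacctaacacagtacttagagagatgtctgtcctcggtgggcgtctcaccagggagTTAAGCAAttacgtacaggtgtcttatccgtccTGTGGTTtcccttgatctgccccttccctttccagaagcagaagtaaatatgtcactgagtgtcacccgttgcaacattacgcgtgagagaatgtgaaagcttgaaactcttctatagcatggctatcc
Mitf +59.7: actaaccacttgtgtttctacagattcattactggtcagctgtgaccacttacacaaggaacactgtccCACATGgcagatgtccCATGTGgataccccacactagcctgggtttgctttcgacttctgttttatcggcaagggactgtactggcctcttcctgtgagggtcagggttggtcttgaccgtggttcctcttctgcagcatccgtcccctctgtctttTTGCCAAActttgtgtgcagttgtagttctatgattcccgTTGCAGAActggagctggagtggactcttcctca
Mitf -0.2: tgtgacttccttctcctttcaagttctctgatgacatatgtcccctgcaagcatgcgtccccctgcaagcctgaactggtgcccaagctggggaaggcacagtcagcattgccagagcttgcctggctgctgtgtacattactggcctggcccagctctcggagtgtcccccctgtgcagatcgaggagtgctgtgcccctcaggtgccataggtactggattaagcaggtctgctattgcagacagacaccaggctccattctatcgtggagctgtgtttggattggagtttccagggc
Cpa3 +44.1: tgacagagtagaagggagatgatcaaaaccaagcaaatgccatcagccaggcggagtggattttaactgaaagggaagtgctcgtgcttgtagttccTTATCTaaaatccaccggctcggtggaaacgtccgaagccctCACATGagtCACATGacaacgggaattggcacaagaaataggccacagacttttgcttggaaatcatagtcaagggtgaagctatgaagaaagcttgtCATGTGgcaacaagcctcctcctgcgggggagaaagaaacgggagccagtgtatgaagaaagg
Hdc +12.3: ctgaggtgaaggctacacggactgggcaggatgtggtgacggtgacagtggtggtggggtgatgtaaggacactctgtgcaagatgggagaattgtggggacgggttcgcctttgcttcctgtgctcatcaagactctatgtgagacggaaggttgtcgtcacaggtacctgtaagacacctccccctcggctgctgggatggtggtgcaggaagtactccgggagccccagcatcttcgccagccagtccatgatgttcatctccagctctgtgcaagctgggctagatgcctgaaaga
Mcpt8 -0.1: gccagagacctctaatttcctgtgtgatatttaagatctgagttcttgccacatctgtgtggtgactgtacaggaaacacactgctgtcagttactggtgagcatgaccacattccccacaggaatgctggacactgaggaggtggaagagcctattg

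Prg2 -12.9 held a match to every motif searched except the E-box, and the first of its M-box matches overlapped the RUNX match. Il1rl1 -19.4 held 1 RUNX match, and Hdc +16.3 held 1 C/EBP and 1 RUNX match. Mitf +59.7 held 2 M-box and 2 C/EBP matches, and Cpa3 +44.1 held 3 M-box matches and 1 GATA match. The letters searched were not in the printed windows of Mitf -0.2, Hdc +12.3 and Mcpt8 -0.1. In the central 300 bases of the 73 member regions the PU.1 letters were found in 11.0%, against 8.70% of all regions. The share with the GATA letters was 19.2% against 12.9%, with C/EBP 26.0% against 16.4%, with RUNX 20.5% against 14.4%, with the E-box 4.11% against 5.77% and with the M-box 20.5% against 20.7%. A match describes letters in a window, not a bound site.

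Of the 73 regions, 40 had their centre in an intron, 26 between genes, 5 in a coding exon and 2 in a UTR. Their median width was 352 bp, against 322 bp for all regions, with a range of 203 to 2393 bp. The member gene itself held 28 of them, and for 26 the nearest start site of a coding gene belonged to a neighbour (Gyg, Ctsg, Ms4a3, Ms4a6d, Slc27a2, Il18r1 or Prg3). A region of a window is therefore not always a region of the gene that named it. A region lay within 500 bp of a start site of Cpa3, Mcpt8, Hdc and Prg2 (1 each) and of Mitf (2). The nearest region to a start site of Ms4a2 was 8.48 kb away, and that of Il1rl1 1.32 kb.

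Library totals ranged from 23072701 to 62204826 counts, at which 3 counts correspond on average to 0.0631 (URE-GMP) to 0.0871 (WT-LSK) CPM (counts relative to the library size, scaled by TMM). The 3 regions 12.9 to 14.9 kb before the Spi1 start, at the deleted element, held 115 to 2110 counts in WT-LSK libraries and 243 to 2077 in WT-GMP, against 0 to 6 in URE-LSK and 0 to 2 in URE-GMP, so every library matched its genotype label. Summed over 8 of 9 GMP marker genes with a region, accessibility was 156 to 163 CPM in WT-LSK and 123 to 153 CPM in URE-LSK. In GMP it was 346 to 425 CPM in WT and 461 to 467 CPM in URE. The marker region of Ctsg is itself a member region of the Mcpt8 window, so this sum is not independent of the members. That region had means of 3.32 CPM (WT-LSK), 12.7 CPM (URE-LSK), 48.4 CPM (WT-GMP) and 105 CPM (URE-GMP). Of the lists for other cell types, that of eosinophils had 3 of its 4 genes called lower in URE-LSK and 2 in URE-GMP. Its gene Siglecf was called in neither, at -0.52 in LSK and 0.13 in GMP. The sum of this list was 22.5 to 25.8 CPM in WT-LSK and 9.97 to 15.0 CPM in URE-LSK. In GMP the genotypes overlapped, with 30.7 to 34.5 CPM in WT-GMP and 25.2 to 31.6 CPM in URE-GMP. The part of this list in the results was not tested. The further basophil and mast cell markers (Lmo4, Gata2, Tpsb2 and Cma1, 4 of 6 with a region) had log2 fold changes of URE over WT from 0.00943 to 0.391 in LSK and from -0.312 to 0.360 in GMP, all under the fold threshold. Between URE and WT 1 GMP marker was called higher (Ctsg, at its member region) and 1 lower (Ly86) in each cell type. Also lower in each were 1 B cell and 1 T cell marker. In GMP 1 B cell marker was higher and 1 megakaryocyte marker lower. No stem cell or erythroid marker was called in edgeR, where their log2 fold changes ranged from -0.917 to 0.497.

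**Figure D1:**
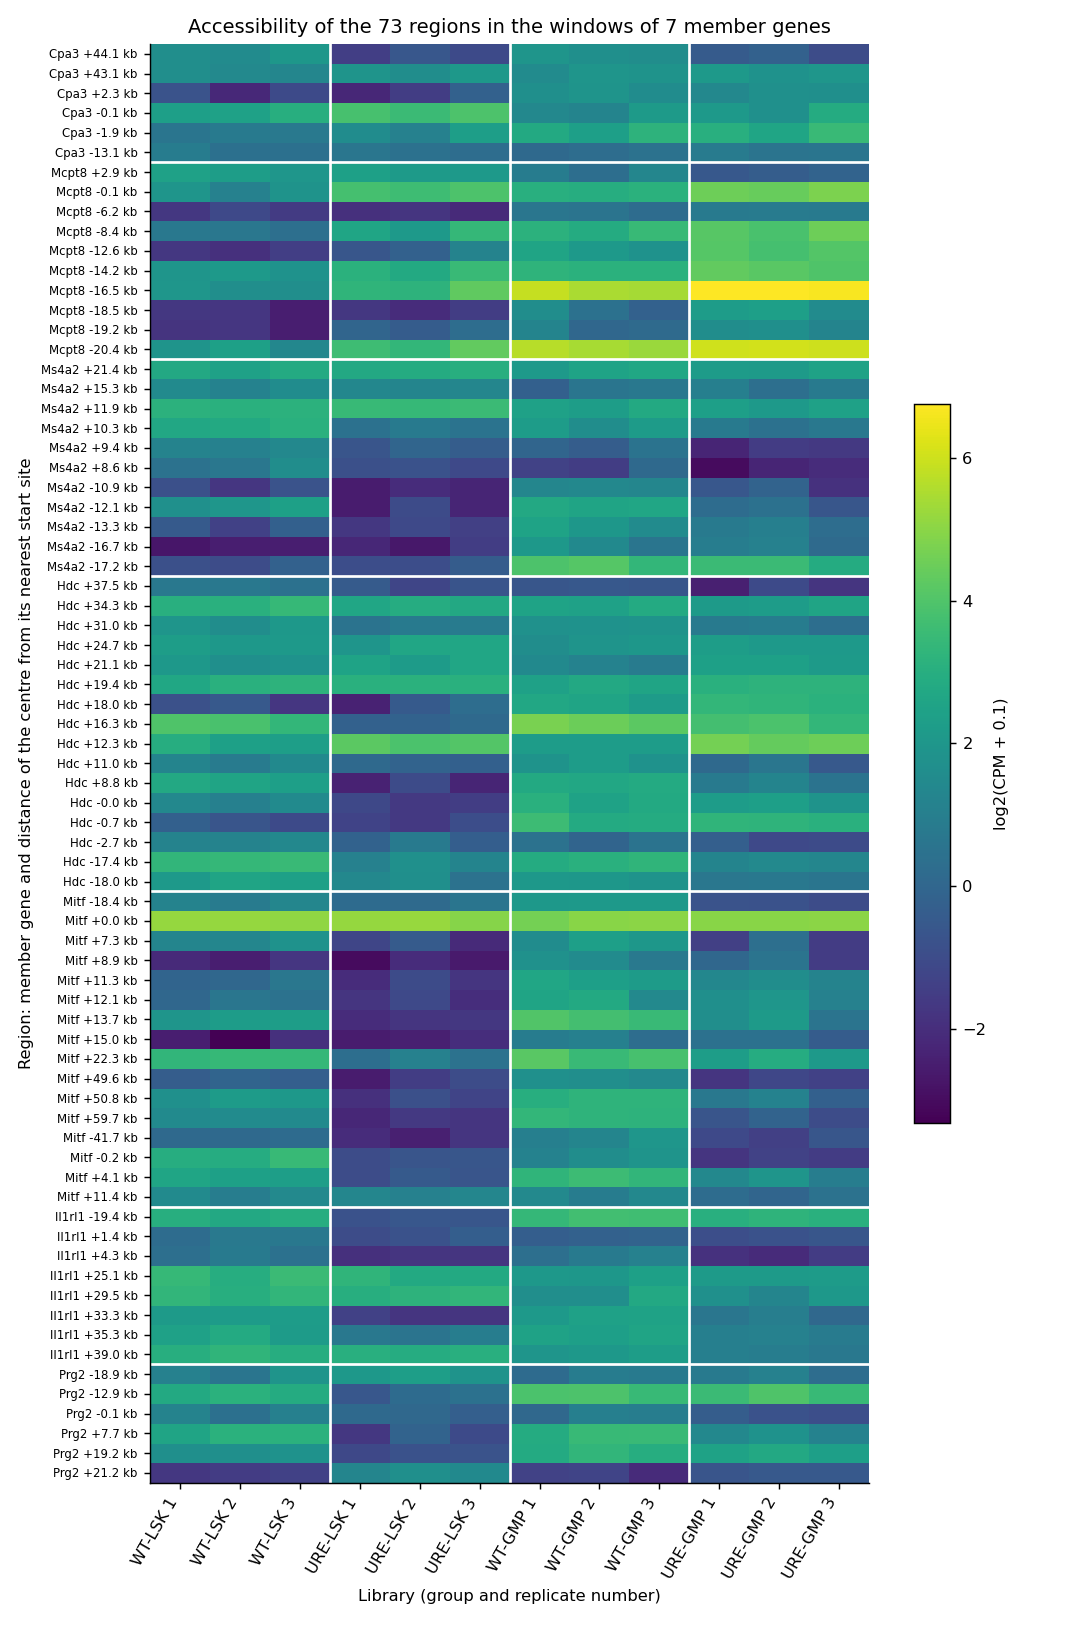
Heat map of log2(CPM + 0.1) for the 73 member regions (rows, ordered by gene and position) in the 12 libraries (columns, 3 per group). Most Mitf rows are lower in both URE groups apart from the row Mitf +0.0, most Mcpt8 rows are highest in URE-GMP, and Hdc +16.3, Il1rl1 -19.4 and Prg2 -12.9 are low in URE-LSK alone.

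The first question was how deletion of the enhancer changed these regions in each cell type. Counts were tested with edgeR's quasi-likelihood test, and a region was called at a Benjamini-Hochberg adjusted p under 0.05 over all regions and an absolute log2 fold change over 1. In LSK, 47 of the 73 member regions were called between URE and WT (64.4%), against 37.5% of all regions. Of these, 36 were lower in URE (49.3% of members, against 23.9% of all regions) and 11 higher (15.1% against 13.6%). In GMP, 44 were called (60.3%, against 39.7% of all regions), 34 of them lower (46.6% against 24.1%) and 10 higher (13.7% against 15.6%). The median log2 fold change of the member regions was -0.99 in LSK and -0.69 in GMP, while the medians over all regions were 0.14 and 0.06. Both cell types shared 29 regions called lower (39.7% of members, against 18.7% of all regions) and 8 called higher (11% against 8.45%), and 19 were called in neither (26% against 50.1%). Calls in opposite directions by edgeR were made in no member region and in 0.160% of all regions. A further 7 were called lower in LSK alone (9.59% against 5.11%) and 5 in GMP alone (6.85% against 5.22%). The 47 regions nearest to the member's own start site included 26 called lower and 5 higher in LSK, and the 26 nearest to a neighbour's included 10 lower and 6 higher.

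How many members were called, and in which direction, varied with the scaling. After GC content offsets the members had 13 higher and 29 lower in LSK and 13 higher and 21 lower in GMP. In LSK 42 of 73 were thus called, against 42.48% of all regions, and in GMP 34 of 73, against 41.98%. With loess offsets they had 13 higher and 25 lower in LSK and 10 higher and 25 lower in GMP. These were 38 of 73 in LSK, against 40.36% of all regions, and 35 of 73 in GMP, against 40.05%. Under both offsets the excess of member calls over all regions was smaller than without offsets, in each cell type. Over all regions the share of calls that were higher went from 36.2% to 52.0% (GC) and 52.8% (loess) in LSK and from 39.4% to 52.9% and 54.7% in GMP. The median over all regions moved by 0.14 and 0.15 with GC offsets, and by -0.17 and -0.16 with TMM on promoter regions, in LSK and GMP on the log2 scale.

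**Figure D2:**
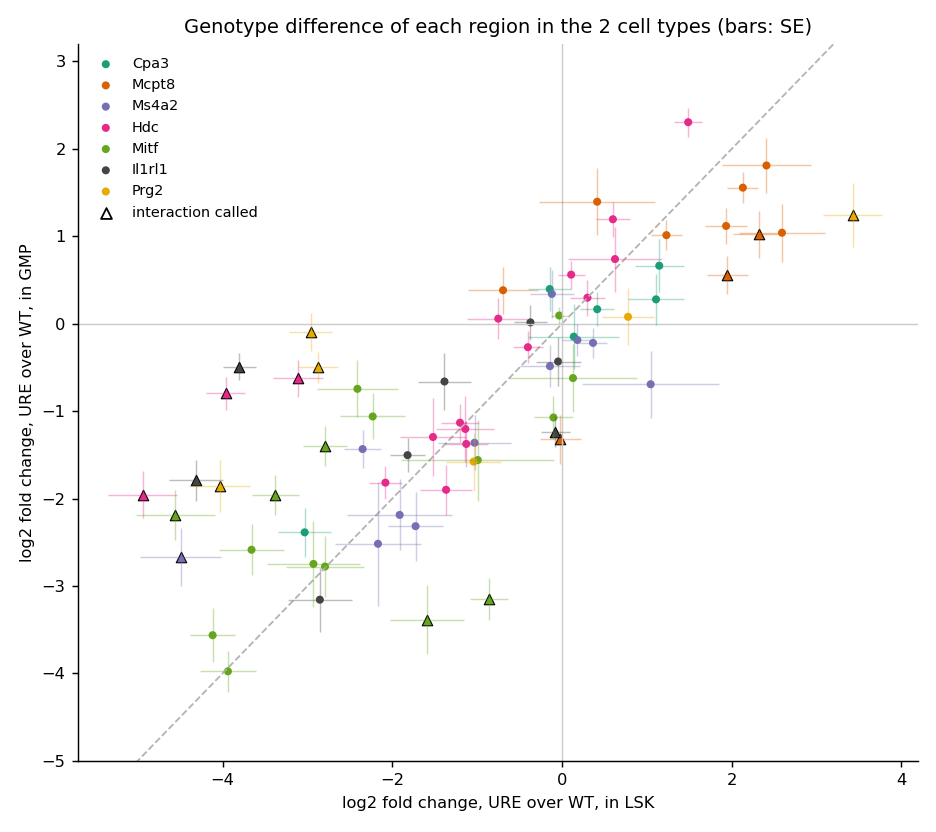
Log2 fold change of URE over WT in LSK (x axis) and in GMP (y axis) for each of the 73 regions, coloured by gene, with bars for the SE and triangles for a called interaction between genotype and cell type. Most called points lie in the lower left, and Il1rl1 -19.4, Hdc +16.3 and Prg2 -12.9 lie far to the left at GMP values of -0.49, -0.80 and -0.10.

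At Mitf, the transcription factor gene, the called regions were lower in URE throughout. In its window 11 of 16 regions fell in URE-LSK and 13 of 16 fell in URE-GMP, and 0 rose in either cell type. All 16 regions were nearest to a start site of Mitf, and 15 lay inside the gene. With GC content offsets 4 of the 13 calls in GMP were lost (Mitf +8.9, +11.3, +22.3 and +11.4), and with loess offsets those of Mitf +8.9, +11.3 and +11.4 in GMP and of Mitf +49.6 in LSK. The call of Mitf +11.3 in GMP also ended without URE-GMP replicate 3 or WT-GMP replicate 1, and that of Mitf +11.4 without URE-GMP replicate 2 or WT-GMP replicate 3. The region at the first start site, Mitf +0.0 (chr6:97806767-97807406), held 35.5, 35.6 and 33.9 CPM in WT-LSK against 35.6, 36.8 and 30.2 CPM in URE-LSK. In GMP it held 25.3, 30.8 and 32.3 CPM in WT and 30.9, 31.2 and 32.4 CPM in URE. The genotypes overlapped in both cell types, with log2 fold changes of -0.03 (SE 0.10, adjusted p = 0.790) in LSK and 0.09 (SE 0.10, adjusted p = 0.434) in GMP, and the sign changed between scalings.

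Another start site of Mitf, inside the gene, lost accessibility instead. Mitf -0.2, 122.6 kb downstream of the first start site, held 7.66, 7.38 and 10.9 CPM in WT-LSK against 0.404, 0.530 and 0.555 CPM in URE-LSK. The GMP libraries gave 2.13, 2.96 and 3.64 CPM in WT and 0.194, 0.295 and 0.242 CPM in URE. No URE library reached the lowest WT library of its cell type, with log2 fold changes of -4.12 (SE 0.27, adjusted p = 9.48e-09) in LSK and -3.56 (SE 0.31, adjusted p = 1.26e-07) in GMP. In the intron 59.7 kb downstream of the first start site, Mitf +59.7 held 2.76, 2.81 and 2.69 CPM in WT-LSK against 0.119, 0.223 and 0.192 CPM in URE-LSK. It held 10.2, 9.44 and 9.10 CPM in WT-GMP and 0.538, 0.833 and 0.412 CPM in URE-GMP. It fell in both cell types without overlap, with log2 fold changes of -3.94 (SE 0.33, adjusted p = 2.78e-08) in LSK and -3.98 (SE 0.24, adjusted p = 1.24e-08) in GMP, and the difference between these changes was -0.04 (SE 0.41, adjusted p = 0.980). The called losses in the window ranged from -1.59 to -4.56 in LSK, the first of these at -2.24 without URE-LSK replicate 3, and from -1.06 to -3.98 in GMP.

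In other Mitf regions the loss differed between the cell types. Mitf -18.4, upstream of the gene, held 4.02, 4.22 and 4.24 CPM in WT-GMP and 0.495, 0.486 and 0.412 CPM in URE-GMP, a log2 fold change of -3.15 (SE 0.24, adjusted p = 6.4e-08). In LSK it held 2.18, 1.75 and 2.39 CPM in WT and 1.05, 1.0 and 1.43 CPM in URE, a log2 fold change of -0.86 (SE 0.22, adjusted p = 0.00359) that missed the fold threshold. The genotypes did not overlap in either cell type, and the interaction (the change in GMP minus that in LSK) was -2.29 (SE 0.33, adjusted p = 0.000272). Mitf +13.7 fell further in LSK. It held 3.75, 4.61 and 4.85 CPM (WT-LSK), 0.143, 0.195 and 0.214 CPM (URE-LSK), 16.2, 13.5 and 11.3 CPM (WT-GMP) and 3.10, 4.42 and 1.36 CPM (URE-GMP), with an interaction of 2.37 (SE 0.55, adjusted p = 0.00577).

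**Figure D3:**
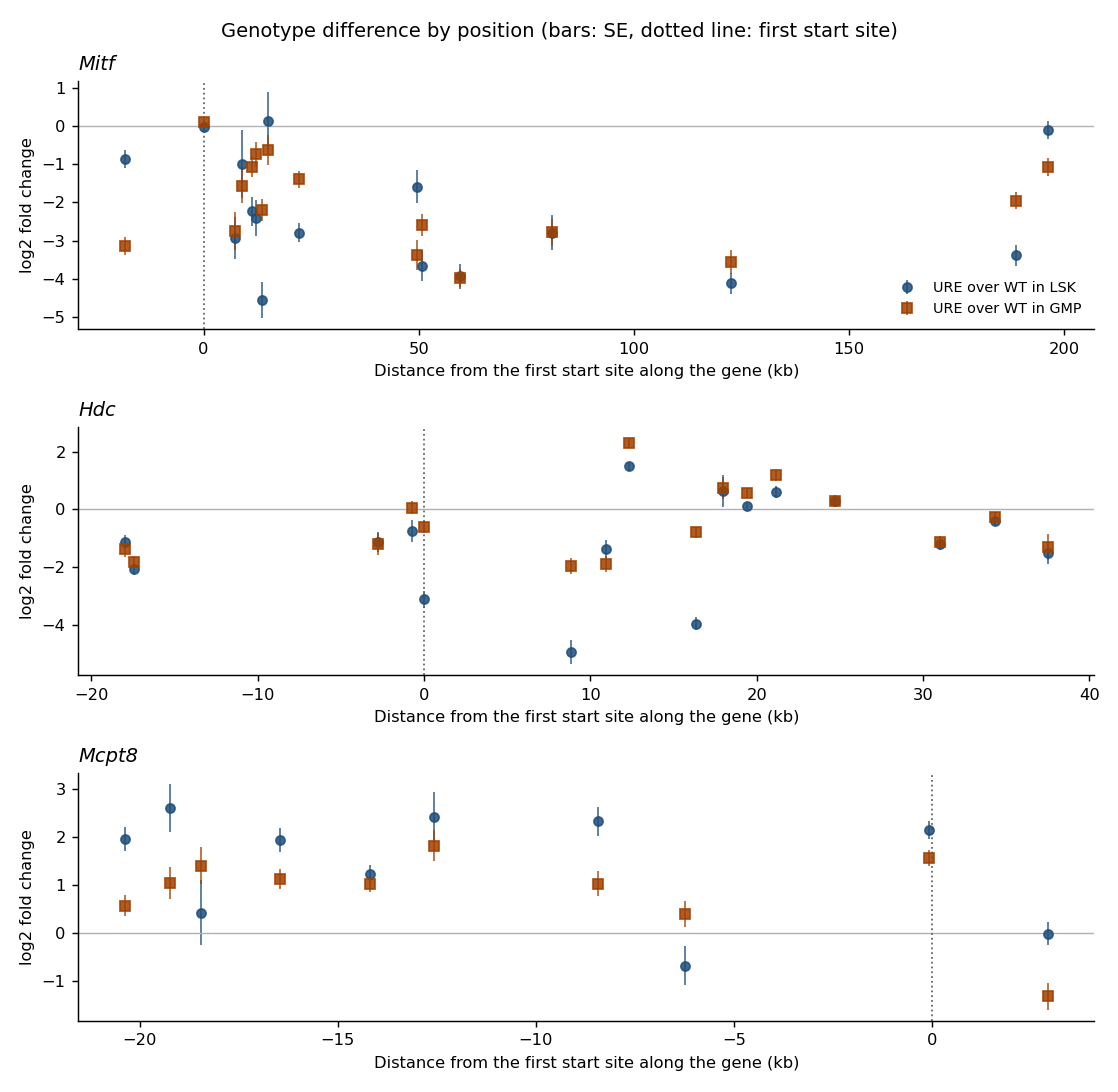
Log2 fold change of URE over WT against the distance in kb of each region's centre from the first start site of Mitf, Hdc and Mcpt8, in LSK (circles) and in GMP (squares), with bars for the SE. At Mitf the point at the first start site lies near 0 in both cell types among losses on either side of it, at Hdc losses and gains stand beside each other inside the gene, and at Mcpt8 most gains lie upstream of the start.

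At Il1rl1, the IL-33 receptor gene, 5 of 8 regions fell in URE-LSK and 4 in URE-GMP, and 0 rose. GC content offsets ended 1 of the LSK calls (Il1rl1 +1.4, also lost with loess offsets) and 2 of the 4 GMP calls (Il1rl1 +35.3 and +39.0). The intergenic region Il1rl1 -19.4 held 7.79, 6.77 and 7.68 CPM in WT-LSK against 0.476, 0.558 and 0.555 CPM in URE-LSK, a log2 fold change of -3.80 (SE 0.19, adjusted p = 1.61e-09). In GMP the values were 10.4, 13.0 and 12.6 CPM in WT and 8.07, 9.35 and 8.24 CPM in URE, a log2 fold change of -0.49 (SE 0.15, adjusted p = 0.0105) that was under the fold threshold although the genotypes did not overlap. The interaction of 3.31 (SE 0.25, adjusted p = 2.8e-06) had the highest value among the 73 regions. Il1rl1 +4.3, in an intron, was low in both URE groups. It held 1.18, 1.67 and 1.25 CPM in WT-LSK against 0.167, 0.195 and 0.192 CPM in URE-LSK, a log2 fold change of -2.85 (SE 0.38, adjusted p = 5.77e-06). Its GMP counterparts were 1.17, 1.64 and 2.05 CPM in WT and 0.172, 0.139 and 0.242 CPM in URE, a log2 fold change of -3.16 (SE 0.37, adjusted p = 2.01e-06). With loess offsets these changes were -1.73 and -2.09. The 5 regions of the window nearest to Il18r1, the gene of an IL-18 receptor chain, included 2 that fell in LSK and 3 in GMP. Among them Il1rl1 +33.3, in an intron of Il18r1, fell by log2 fold changes of -4.31 (SE 0.32) in LSK and -1.79 (SE 0.23) in GMP. The region at the Il18r1 start, Il1rl1 +25.1, had log2 fold changes of -0.37 (SE 0.19) and 0.02 (SE 0.20) and passed in neither.

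At Ms4a2, the beta chain of the IgE receptor, 6 of 11 regions fell in each URE cell type and 0 rose. Loess offsets ended 4 of the 6 calls in LSK (Ms4a2 +9.4, +8.6, -10.9 and -13.3) and 2 in GMP (Ms4a2 +8.6 and -13.3), and GC content offsets ended those of Ms4a2 -13.3 in both cell types and of Ms4a2 +10.3 in GMP. The 2 regions nearest to Ms4a2 itself, Ms4a2 +9.4 and +8.6, fell in both cell types. Ms4a2 +8.6, just past the end of the gene, held 1.29, 1.51 and 2.94 CPM in WT-LSK against 0.452, 0.475 and 0.363 CPM in URE-LSK, a log2 fold change of -2.17 (SE 0.50, adjusted p = 0.00157). For GMP the libraries held 0.293, 0.252 and 0.991 CPM in WT and 0.0215, 0.104 and 0.145 CPM in URE, a log2 fold change of -2.52 (SE 0.71, adjusted p = 0.00346). Leaving out WT-GMP replicate 3 ended the call in GMP. The region with the smallest p of the window, Ms4a2 -12.1, lay in a coding exon of Ms4a3, a neighbouring gene of granulocyte progenitors. It held 3.2, 3.79 and 5.27 CPM in WT-LSK against 0.0714, 0.391 and 0.107 CPM in URE-LSK, a log2 fold change of -4.49 (SE 0.48, adjusted p = 3.04e-07) that came to -5.47 without URE-LSK replicate 2. In GMP it held 6.74, 5.83 and 6.15 CPM in WT and 1.08, 1.27 and 0.557 CPM in URE, a log2 fold change of -2.67 (SE 0.33, adjusted p = 7.14e-06). No URE library reached a WT library of its cell type. Nearer to the Ms4a3 start, Ms4a2 -13.3 was called in LSK at -1.03, a call lost under 11 of 22 alternatives, among them without URE-GMP replicate 1 and without replicate 1 or 3 of WT-LSK or URE-LSK.

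At Hdc, the histamine-producing enzyme, regions inside 1 gene moved in opposite directions. In LSK 9 of 16 regions fell and 1 rose, and in GMP 7 fell and 2 rose. GC content offsets ended 4 of the 9 losses in LSK (Hdc +31.0, +11.0, -2.7 and -18.0) and 4 of the 7 in GMP (Hdc +37.5, +31.0, -2.7 and -18.0). Loess offsets ended 4 in LSK (Hdc +37.5, +31.0, -2.7 and -18.0) and 3 in GMP (Hdc +37.5, +31.0 and -2.7). Calls also ended in LSK for Hdc -2.7 without URE-LSK replicate 1 or 3 and for Hdc -18.0 without URE-LSK replicate 3, and in GMP for Hdc +37.5 without URE-GMP replicate 1 or 3 and for Hdc +31.0 without URE-GMP replicate 3. The intronic region Hdc +16.3 held 15.7, 14.6 and 10.3 CPM in WT-LSK against 0.785, 0.809 and 0.983 CPM in URE-LSK, a log2 fold change of -3.96 (SE 0.23, adjusted p = 4.05e-09). The GMP libraries gave 26.2, 22.4 and 18.3 CPM in WT and 13.4, 15.0 and 10.0 CPM in URE, a log2 fold change of -0.80 (SE 0.19, adjusted p = 0.00163) that missed the fold threshold without overlap of the genotypes. In the same gene, Hdc +12.3 rose in both cell types. It held 7.64, 5.18 and 4.93 CPM in WT-LSK against 18.3, 14.8 and 16.6 CPM in URE-LSK, a log2 fold change of 1.49 (SE 0.16, adjusted p = 1.45e-06). In GMP the values were 4.60, 4.68 and 4.68 CPM in WT and 25.3, 20.7 and 23 CPM in URE, a log2 fold change of 2.31 (SE 0.16, adjusted p = 5.01e-08). The promoter region of Hdc (chr2:126618554-126618816) held 2.52, 2.0 and 2.75 CPM in WT-LSK against 0.357, 0.223 and 0.256 CPM in URE-LSK, a log2 fold change of -3.11 (SE 0.30, adjusted p = 1.68e-07). Its GMP counterparts were 8.24, 5.48 and 6.96 CPM in WT and 4.69, 5.05 and 3.56 CPM in URE, a log2 fold change of -0.63 (SE 0.21, adjusted p = 0.0168) that was not called. Inside an intron of the neighbour Gabpb1, Hdc -17.4 fell by log2 fold changes of -2.08 (SE 0.19) and -1.82 (SE 0.19).

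At Cpa3, the mast cell carboxypeptidase, 2 of 6 regions rose and 1 fell in URE-LSK, and 1 fell and 0 rose in URE-GMP. The Cpa3 promoter region (chr3:20242082-20242436) held 5.09, 5.30 and 7.84 CPM in WT-LSK against 13.9, 11.5 and 15.2 CPM in URE-LSK, without overlap and with a log2 fold change of 1.15 (SE 0.29, adjusted p = 0.00326). For GMP the libraries held 2.51, 2.25 and 4.43 CPM in WT and 4.24, 3.23 and 7.24 CPM in URE, with overlap and with a log2 fold change of 0.66 (SE 0.30, adjusted p = 0.0683). That in GMP ranged from 0.27 to 1.20 over the alternatives and was called with GC content offsets, with or without the replicate block, and without WT-GMP replicate 3. The value in LSK ranged from 0.97 to 1.72 over the alternatives, and its call was lost without WT-LSK replicate 1 or 2 and with TMM on promoter regions. The other rise, Cpa3 -1.9 at 1.11 (SE 0.33) in LSK, was lost without WT-LSK replicate 1, without URE-LSK replicate 3 and under 2 scalings. The region that fell, Cpa3 +44.1, lay past the end of the gene and nearer to Gyg. It held 3.07, 2.77 and 3.90 CPM in WT-LSK against 0.262, 0.558 and 0.384 CPM in URE-LSK, a log2 fold change of -3.03 (SE 0.31, adjusted p = 4.82e-07). In GMP it held 3.68, 3.19 and 2.95 CPM in WT and 0.646, 0.781 and 0.412 CPM in URE, a log2 fold change of -2.39 (SE 0.28, adjusted p = 3.57e-06).

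At Mcpt8, the basophil protease, 7 of 10 regions rose in each URE cell type, while 0 fell in LSK and 1 in GMP. The Mcpt8 promoter region (chr14:56085012-56085553) held 3.73, 2.08 and 3.52 CPM in WT-LSK against 13.8, 12.3 and 15.4 CPM in URE-LSK, a log2 fold change of 2.13 (SE 0.18, adjusted p = 1.24e-07). The GMP libraries gave 8.03, 7.66 and 8.67 CPM in WT and 22.9, 21.5 and 27.2 CPM in URE, a log2 fold change of 1.56 (SE 0.17, adjusted p = 2.37e-06). Every URE library lay above every WT library of its cell type. The region that fell in GMP, Mcpt8 +2.9 over a coding exon of the gene, held 1.76, 1.13 and 2.37 CPM in WT and 0.581, 0.694 and 0.824 CPM in URE, a log2 fold change of -1.32 (SE 0.28, adjusted p = 0.000709) that lost its call without WT-GMP replicate 3 and with GC content offsets. In 6 of the 10 regions the nearest start site was that of Ctsg, the cathepsin G gene of granulocyte progenitors, and 5 of these 6 rose in each cell type. The region over Ctsg, Mcpt8 -16.5, held 3.86, 3.02 and 3.08 CPM in WT-LSK against 9.47, 8.96 and 19.5 CPM in URE-LSK, a log2 fold change of 1.93 (SE 0.24, adjusted p = 5.7e-06). In GMP the values were 58.4, 44.9 and 42.0 CPM in WT and 108, 105 and 101 CPM in URE, a log2 fold change of 1.12 (SE 0.21, adjusted p = 0.000271). This rise in GMP and those of Mcpt8 -8.4 (1.02), -14.2 (1.01) and -19.2 (1.04) lay just over the fold threshold. All 4 were lost with TMM on promoter regions, the first also with loess offsets, and for each of the 6 GMP libraries at least 1 of the last 3 was lost when it was left out. The summed accessibility of the 6 regions nearest to Ctsg was 11.4, 37.8, 109 and 211 CPM in the order WT-LSK and URE-LSK, then WT-GMP and URE-GMP, and that of the 4 nearest to Mcpt8 was 9.47, 25.5, 20.2 and 44.6 CPM.

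At Prg2, the granule protein, 4 of 6 regions fell and 1 rose in URE-LSK, and 2 fell and 1 rose in URE-GMP. Upstream of the gene, Prg2 -12.9 held 6.85, 8.69 and 7.22 CPM in WT-LSK against 0.571, 1.06 and 1.26 CPM in URE-LSK, a log2 fold change of -2.96 (SE 0.25, adjusted p = 1.03e-07). In GMP the genotypes overlapped, with 15.1, 15.2 and 11.0 CPM in WT and 11.7, 15.7 and 11.1 CPM in URE and a log2 fold change of -0.10 (SE 0.21, adjusted p = 0.712). Prg2 +19.2, over a coding exon of the neighbour P2rx3, was also lowest in URE-LSK, with 3.18, 3.14 and 3.42 CPM (WT-LSK), 0.357, 0.475 and 0.491 CPM (URE-LSK), 7.11, 9.74 and 7.70 CPM (WT-GMP) and 5.55, 6.77 and 5.06 CPM (URE-GMP). These are log2 fold changes of -2.87 (SE 0.24, adjusted p = 4.96e-08) in LSK and -0.50 (SE 0.18, adjusted p = 0.0250) in GMP, without overlap of the genotypes in either cell type. At the start of the paralogue Prg3, Prg2 +7.7 held 5.83, 8.61 and 8.65 CPM (WT-LSK), 0.214, 0.837 and 0.384 CPM (URE-LSK), 7.28, 10.9 and 11.2 CPM (WT-GMP) and 2.54, 3.43 and 2.13 CPM (URE-GMP). It fell in both cell types, with log2 fold changes of -4.04 (SE 0.36, adjusted p = 1.49e-07) and -1.86 (SE 0.29, adjusted p = 6.4e-05), the first of which was -4.65 without URE-LSK replicate 2. The Prg2 promoter region (chr2:84980273-84980540) held 2.15, 1.22 and 2.01 CPM (WT-LSK), 0.976, 0.949 and 0.726 CPM (URE-LSK), 0.962, 1.95 and 1.82 CPM (WT-GMP) and 0.689, 0.486 and 0.436 CPM (URE-GMP). The genotypes did not overlap in either cell type, with log2 fold changes of -1.04 (SE 0.32, adjusted p = 0.0112) and -1.58 (SE 0.33, adjusted p = 0.000685). The call in LSK was lost under 7 of 22 alternatives, among them without WT-LSK replicate 1 and without URE-LSK replicate 3, and that in GMP with loess offsets. The region that rose, Prg2 +21.2 in an intron of P2rx3, held 0.210, 0.245 and 0.282 CPM in WT-LSK against 2.28, 3.15 and 2.65 CPM in URE-LSK, a log2 fold change of 3.43 (SE 0.35, adjusted p = 3.82e-07). With 1.24 in GMP, its call there ended without WT-GMP replicate 3. Prg2 +21.2, Mcpt8 +2.9, -8.4, -14.2 and -19.2, Ms4a2 +10.3, +9.4, +8.6, -10.9 and -13.3, Hdc +37.5, +31.0, +11.0, +8.8, -2.7, -17.4 and -18.0, Il1rl1 +1.4, +33.3, +35.3 and +39.0, Cpa3 -1.9 and the Mitf regions at +8.9, +13.7, +22.3, +49.6 and +11.4 lie outside the rule for named regions and were chosen after their values were seen.

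**Figure D4:**
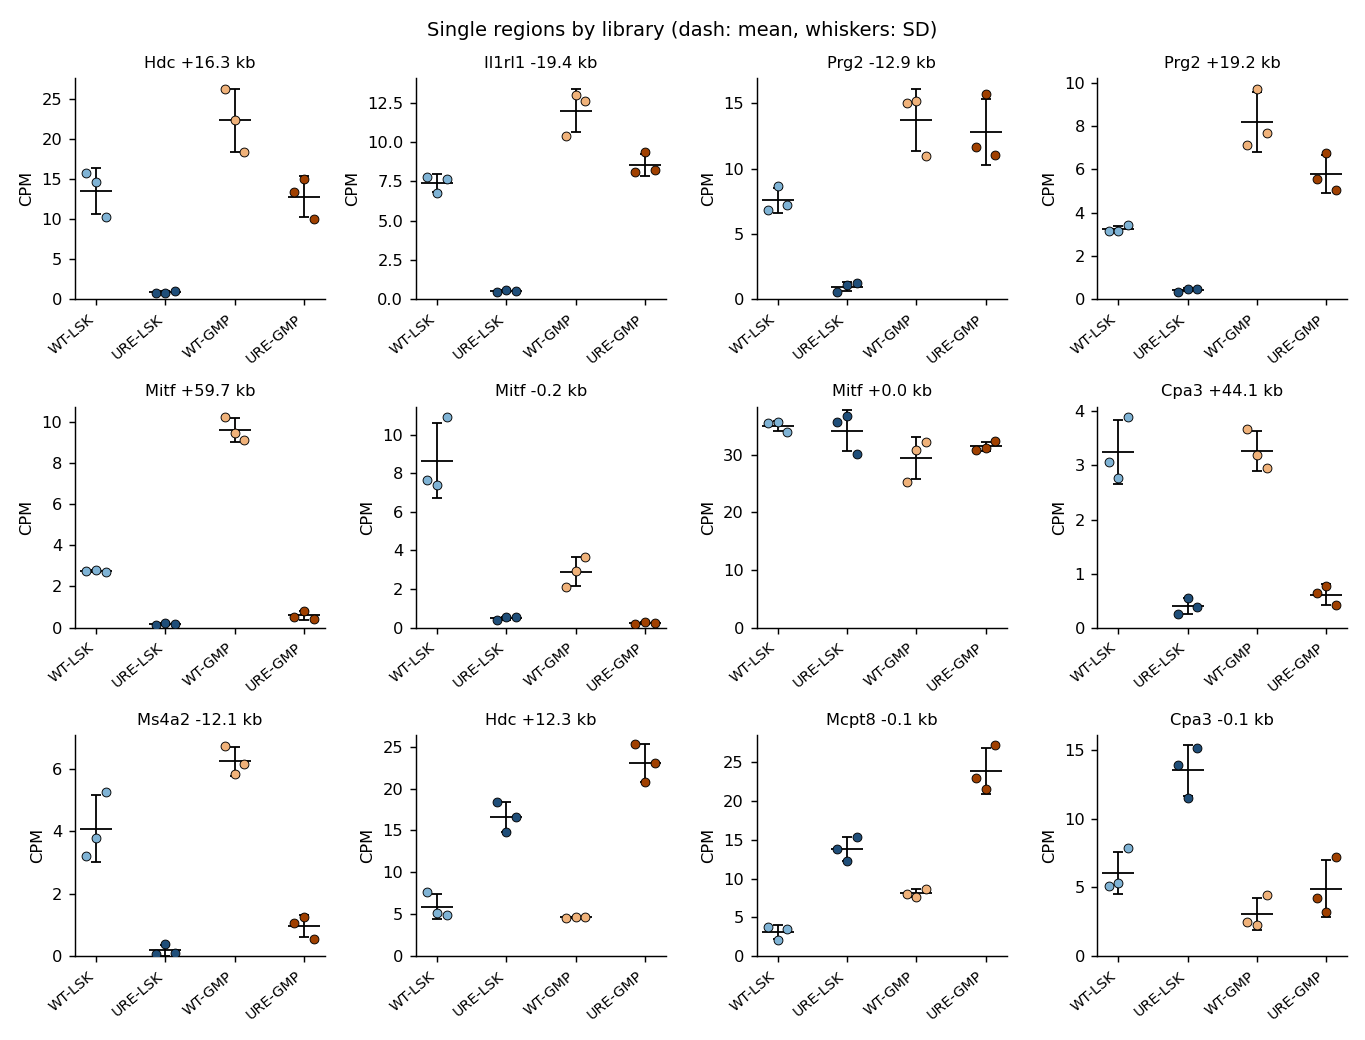
Accessibility in CPM (y axes, starting at 0) of 12 regions in the 3 libraries of each group, with each point a library, a dash for the mean and whiskers for the SD. Hdc +16.3, Il1rl1 -19.4 and Prg2 -12.9 are near 0 in URE-LSK and well above it in URE-GMP, Mitf +59.7 is near 0 in both URE groups, and Mcpt8 -0.1 is higher in both.

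Whole gene windows were compared by summing the counts of their regions, with the same test over 18410 coding genes. In LSK 2 of the 7 member genes with regions were called, against 5.83% of all genes. The Mcpt8 window held 22.6, 21.9 and 18.1 CPM in WT-LSK against 57.0, 48.6 and 84.4 CPM in URE-LSK, a log2 fold change of 1.61 (SE 0.16, adjusted p = 7.19e-07). The Prg2 window held 20.3, 23.3 and 25.2 CPM in WT-LSK against 8.45, 11.4 and 9.06 CPM in URE-LSK, a log2 fold change of -1.26 (SE 0.15, adjusted p = 4.67e-06). Its call was lost with GC content offsets (with or without the replicate block) and with 50 kb windows. Over the alternatives the value ranged from -2.81 to -0.17. In GMP 1 was called, against 7.52% of all genes. This was the Mitf window, with 121, 122 and 117 CPM in WT-GMP and 53.7, 62.6 and 49.1 CPM in URE-GMP, a log2 fold change of -1.12 (SE 0.08, adjusted p = 1.76e-08) that lost its call with GC content offsets. In LSK the Mitf window held 79.7, 81.1 and 85 CPM in WT and 42.4, 45.8 and 38.4 CPM in URE, a log2 fold change of -0.96 (SE 0.08, adjusted p = 1.99e-07) just under the fold threshold. The threshold was passed with TMM on promoter regions, with library size only and with the groups compared only. It was also passed without any 1 of WT-LSK replicates 1 and 2, URE-LSK replicate 2 and the 3 WT-GMP replicates. The Mcpt8 window in GMP, at 0.98 (SE 0.14, adjusted p = 2.59e-05), was just under the fold threshold. It was called without WT-GMP replicate 1, with DESeq2, RLE or GC content offsets (with or without the replicate block) and with 5 kb windows. The genotypes of the Il1rl1 window did not overlap in either cell type, with log2 fold changes of -0.80 (SE 0.09) and -0.78 (SE 0.09), nor did those of the Ms4a2 window, with -0.50 (SE 0.10) and -0.77 (SE 0.10). The Prg2 window had -0.54 (SE 0.14, adjusted p = 0.00311) in GMP, also without overlap of the genotypes, and was called there only with 5 kb windows. The Hdc window had -0.55 (SE 0.06, adjusted p = 4.04e-06) in LSK and -0.05 (SE 0.06, adjusted p = 0.501) in GMP, and the Cpa3 window 0.55 (SE 0.16, adjusted p = 0.00744) and 0.07 (SE 0.16, adjusted p = 0.693).

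**Figure D5:**
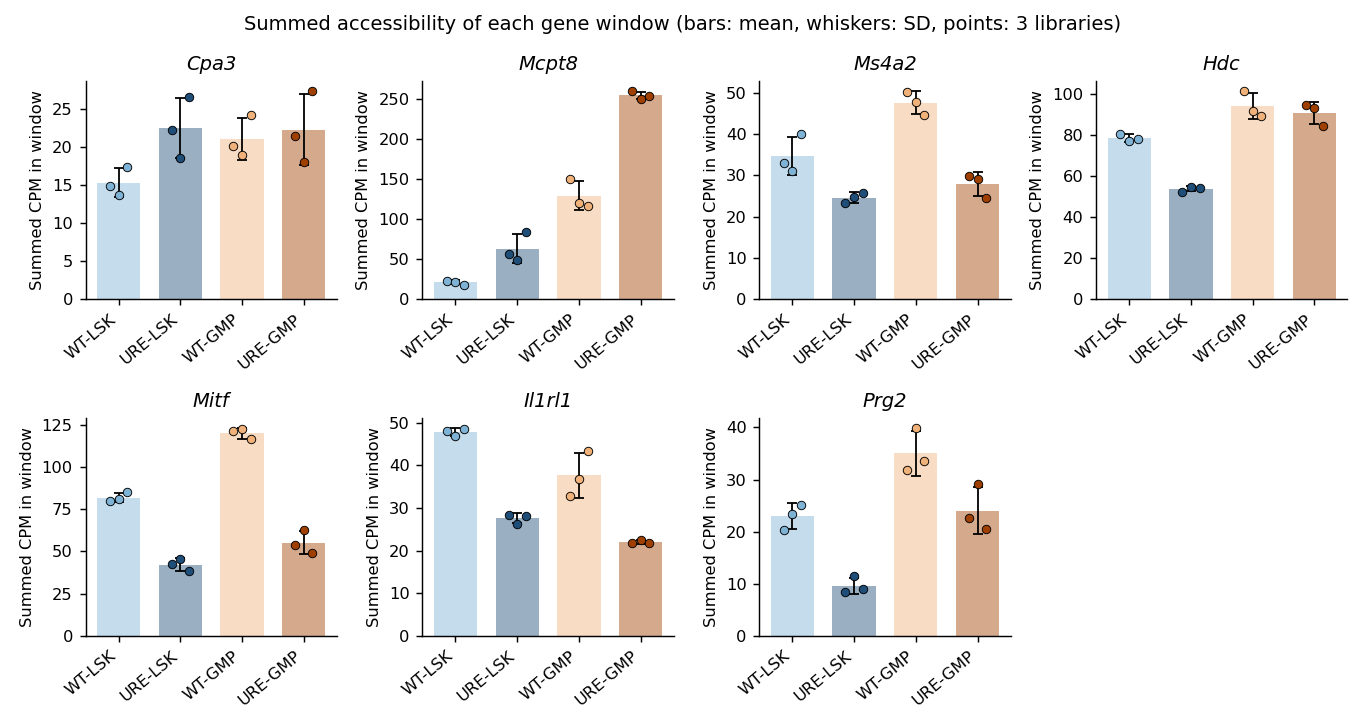
Summed CPM of the regions in each of the 7 gene windows (y axes, starting at 0) for the 4 groups, with the 3 libraries as points and the mean and SD. Mitf, Il1rl1, Ms4a2 and Prg2 are lower in URE in both cell types, Mcpt8 is higher in both, and Prg2 and Hdc have their lowest level in URE-LSK.

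The second question was how the regions differed between GMP and LSK in each genotype, a comparison that shares its libraries with those above. In WT, 37 of 73 member regions were called (50.7%, against 37.8% of all regions), 28 of them higher in GMP (38.4% against 21%) and 9 lower (12.3% against 16.8%). In URE, 49 were called (67.1% against 49.2%), 35 higher (47.9% against 27.6%) and 14 lower (19.2% against 21.6%). In WT all 10 regions of the Mcpt8 window were called, 9 of them higher in GMP, and of the 16 Mitf regions 9 were higher and 1 lower. The higher regions of the Mcpt8 window included all 6 that were nearest to Ctsg. Cpa3 +2.3, in an intron, held 0.499, 0.122 and 0.382 CPM (WT-LSK) and 0.119, 0.251 and 0.769 CPM (URE-LSK), against 3.18, 3.65 and 2.93 CPM (WT-GMP) and 2.48, 3.21 and 3.13 CPM (URE-GMP). Its genotypes overlapped in both cell types, and from LSK to GMP it rose by 3.19 (SE 0.47, adjusted p = 2.71e-05) in WT and 2.90 (SE 0.45, adjusted p = 2.38e-05) in URE on the log2 scale, the latter 4.0 without URE-LSK replicate 3. Hdc -0.7, just upstream of the Hdc start, held 0.761, 0.530 and 0.382 CPM (WT-LSK) and 0.309, 0.223 and 0.427 CPM (URE-LSK), against 12.1, 7.07 and 7.28 CPM (WT-GMP) and 9.56, 9.32 and 8.46 CPM (URE-GMP). It rose by 3.98 (SE 0.30, adjusted p = 9.76e-08) in WT and 4.79 (SE 0.32, adjusted p = 6.9e-09) in URE, again with overlapping genotypes. At the start of Ms4a3, Ms4a2 -17.2 rose by 4.65 (SE 0.31) and 4.31 (SE 0.30), and Mcpt8 -16.5 over Ctsg by 3.86 (SE 0.24) and 3.04 (SE 0.21). Inside Mitf, Mitf +11.3 rose by 2.24 (SE 0.28) and 3.41 (SE 0.37). The Cpa3 promoter region was instead lower in GMP, with log2 fold changes of -0.99 (SE 0.30) in WT, which was not called, and -1.47 (SE 0.29) in URE. Mitf -0.2 was lower in GMP in WT, at -1.56 (SE 0.23), and Il1rl1 +25.1 at the Il18r1 start was lower too, at -1.19 (SE 0.19). Among the window sums 1 of 7 genes was called in WT (against 6.58% of all genes), Mcpt8 at 2.63 (SE 0.15). In URE 2 were called (against 11.7%), Mcpt8 at 2.01 (SE 0.14) and Prg2 at 1.33 (SE 0.15). With 5 kb windows the Mcpt8 values were 0.34 in WT and 0.41 in URE, and neither was called. With 50 kb windows the Prg2 value in URE was 0.31 and was not called.

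Whether the genotype difference differed between the cell types was tested as the interaction. It was called in 19 of 73 member regions (26.0%, against 14% of all regions), with 12 positive (16.4% against 8.96%) and 7 negative (9.59% against 5.03%). Among the window sums edgeR called 0 of 7 (against 3.26% of all genes), DESeq2 also called 0, 4 had an unadjusted p under 0.05 in edgeR, and 3 had an adjusted p under 0.05 without the fold threshold. Of the 7 regions called lower in LSK alone, 5 had a called interaction, as did 1 of the 3 called higher in LSK alone. The interaction equals the step from LSK to GMP in URE minus that in WT, so the steps at such regions only restate it. For Il1rl1 -19.4 the step was 0.70 in WT and 4.01 in URE, and for Hdc +16.3 0.72 and 3.89 on the log2 scale. For Prg2 -12.9 the step was 0.86 and 3.73, and for Prg2 +19.2 1.33 and 3.71. The same libraries enter the genotype differences and these steps, so they are not independent of each other.

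A list of 37 other mast cell, basophil and eosinophil genes was read in the same fit. For each gene the most covered region no further than 5 kb from a start site was taken, which 30 of the 37 had. Between URE and WT 3 were higher and 4 lower in LSK, and 2 higher and 3 lower in GMP, where 37.5% and 39.7% of all regions were called. The medians of their log2 fold changes came to 0.13 and 0.17, against 0.14 and 0.06 over all regions. Called lower in both cell types were the regions of Gata1, a transcription factor of erythroid and mast cells, at -2.54 (SE 0.27) and -2.54 (SE 0.24) in LSK and GMP, Il5ra, the IL-5 receptor alpha chain of eosinophils, at -2.43 (SE 0.59) and -3.84 (SE 0.47), and Ccr3, the eotaxin receptor, at -2.34 (SE 0.24) and -3.69 (SE 0.29). Epx, eosinophil peroxidase, fell in LSK, with a log2 fold change of -3.49 (SE 0.54) there and -0.89 (SE 0.39) in GMP, with an interaction of 2.60 (SE 0.67). The regions of Il5ra and Epx had means of only 0.121 and 0.111 CPM in URE-LSK. The window sums of Gata1, Il5ra, Ccr3 and Epx were called in neither cell type. In LSK and GMP they were 0.09 and 0.11 (Gata1), -0.03 and -0.38 (Il5ra), -0.64 and -0.14 (Ccr3) and 0.15 and 0.15 (Epx). Gzmb, granzyme B, rose in both, at 2.53 (SE 0.25) and 1.11 (SE 0.27), as did Ctsg, whose region is Mcpt8 -16.5. Fcer1g, the gamma chain of Fc receptors, rose in LSK at 1.57 (SE 0.21) and had 0.62 (SE 0.20) in GMP. Gata2 and Kit, both needed for mast cells, passed in neither cell type, with 0.39 and 0.36 for Gata2 and 0.20 and 0.22 for Kit. Between GMP and LSK 6 were higher and 0 lower in WT, and 5 higher and 4 lower in URE, against 37.8% and 49.2% of all regions called. Cebpe, a C/EBP factor of granulocytes, was higher in GMP by 2.40 (SE 0.22) in WT and 3.43 (SE 0.22) in URE, and Alox5, the lipoxygenase of leukotriene synthesis, by 1.47 (SE 0.15) in WT. The interaction was called positive for 2 genes (Epx and Cebpe) and negative for 2 (Gzmb and Ccr3), against 14% of all regions. Among the 37 window sums 2 were higher (Gzmb and Ctsg) and 0 lower in LSK, against 5.83% of all genes called. In GMP 0 were higher and 3 lower (Hpgds, Mcpt1 and Rgs13), against 7.52%.

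The genes whose window sums were most like those of a member over the 4 group means, each centred on the log2 scale, were found by Euclidean distance. Il1rl1 was most like Abcg8 (0.0374), Hdc like Cd53 (0.0446), Ms4a2 like Pld4 (0.0646), Cpa3 like G6pc3 (0.0715), Prg2 like Banf2 (0.0915), Mitf like Gh (0.133) and Mcpt8 like Tecta (0.452). Each was 1 of 15857 to 15860 genes compared over 4 values.

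The motif matches were set beside the genotype calls without a test. Of the 8 member regions with the PU.1 letters, 5 fell and 0 rose in LSK, and 5 fell and 1 rose in GMP. Of the 19 with the C/EBP letters, 10 fell and 2 rose in each cell type. Of the 15 with the RUNX letters, 8 fell and 2 rose in LSK, and 4 fell and 0 rose in GMP. Of the 14 with the GATA letters, 9 fell and 3 rose in LSK, and 7 fell and 1 rose in GMP. Of the 15 with the M-box letters, 10 fell and 3 rose in LSK, and 9 fell and 3 rose in GMP. Of the 3 with the E-box letters, 2 fell in LSK and 1 fell and 1 rose in GMP. These counts stand beside 49.3% lower and 15.1% higher in LSK and 46.6% lower and 13.7% higher in GMP over all 73 members. Over all regions 23.9% were lower and 13.6% higher in LSK, and 24.1% lower and 15.6% higher in GMP. Shares among all regions with each motif are not given here, and regions of 1 window are not independent.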

How the data were processed

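ATAC-seq libraries of sorted LSK and GMP from WT and URE mice were made by the authors with the OmniATAC protocol. Reads were trimmed with cutadapt and aligned with bowtie2 to GRCm38, duplicates and reads outside the primary chromosomes were removed, peaks were called with Genrich in each group and merged, and featureCounts filled the deposited table of raw counts per region. The versions of cutadapt, bowtie2 and featureCounts are not given in the sources used here, nor is whether fragments or read ends were counted. Peaks called within groups favour regions open in at least 1 group. Region starts were read as 0-based.

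The 121336 regions were tested in edgeR 4.0.16 (R 4.3.3, limma 3.58.1) by the quasi-likelihood test, two-sided, with TMM, 1 coefficient per group over all 12 libraries and Benjamini-Hochberg adjustment over all regions, and window sums likewise over 18410 genes. filterByExpr removed 0 regions. A call needed an adjusted p under 0.05 and an absolute log2 fold change over 1. CPM values use effective library sizes, and the SE is that of the fitted coefficient. With 3 libraries per group, the spread behind the p-values was estimated over all 4 groups and moderated across regions. It is not that of the compared groups alone. No library was a duplicate of another by a chi-square comparison of counts. In simulated data for URE against WT in LSK, 50 of 50 regions changed 4-fold upward and 46 of 50 changed 2.5-fold upward were called, with 3 false calls. Downward changes of these sizes were called in 50 of 50 and 46 of 50. Only regions with a mean count over 50 were changed, far fewer than were called in the data. Every region had the same dispersion, so these rates need not hold for regions with low counts.

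The member genes, the list of 37 genes and the marker lists were chosen with earlier results of these data known. Named regions were, for each gene, the promoter region and the called region with the smallest p in each comparison. Distances of 20 kb (windows), 500 bp (promoters) and 5 kb (other genes) were used. Alternatives were other scalings (RLE, library size, TMM on promoter regions, GC content and loess offsets), DESeq2 1.42.0, a mean CPM of at least 2, windows of 5 and 50 kb, regions nearest to a member's start, no fold threshold, the groups compared only, a replicate block and leaving out each library.

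Replicate numbers of WT-LSK and WT-GMP libraries were checked for pairing. Their deviations from the group means correlated over regions by 0.150, 0.182 and 0.194, but the labels do not say that they share a mouse. Same-numbered WT-GMP and URE-GMP libraries, which differ in genotype and so in mouse, correlated by 0.0862, 0.191 and 0.312. Such correlations therefore cannot tell a shared mouse from another effect that goes with the replicate number. The pairs WT-LSK with URE-LSK and URE-LSK with URE-GMP also had at least 1 correlation under 0.1.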

Additional observations from a re-analysis of the deposited data

Results flagged for a closer look

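The change between URE and WT differed between LSK and GMP, by a called interaction in edgeR's quasi-likelihood test, in 19 of the 73 regions. Each value is the log2 fold change in GMP minus that in LSK.

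At Hdc the interaction was 3.17 (SE 0.30) for Hdc +16.3, 2.98 (SE 0.49) for Hdc +8.8 and 2.49 (SE 0.36) for the promoter region, all inside the gene record and all lower in URE-LSK. At Il1rl1 it was 3.31 (SE 0.25) for Il1rl1 -19.4, 2.52 (SE 0.39) for Il1rl1 +33.3 and -1.16 (SE 0.25) for Il1rl1 +39.0, the last of which lost its call without WT-GMP replicate 3. At Prg2 it was 2.87 (SE 0.33) for Prg2 -12.9, 2.18 (SE 0.47) for Prg2 +7.7, 2.37 (SE 0.30) for Prg2 +19.2 and -2.18 (SE 0.50) for Prg2 +21.2, which rose further in LSK.

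At Mitf the values went both ways, with -2.29 (SE 0.33) for Mitf -18.4, 2.37 (SE 0.55) for Mitf +13.7, 1.39 (SE 0.35) for Mitf +22.3, 1.42 (SE 0.36) for Mitf +4.1 and -1.79 (SE 0.59) for Mitf +49.6, a call lost under 11 of 22 alternatives, 10 of them leaving out a single library. At Mcpt8 they were negative, with -1.39 (SE 0.33) for Mcpt8 -20.4, -1.30 (SE 0.40) for Mcpt8 -8.4 and -1.30 (SE 0.37) for Mcpt8 +2.9, and the calls of the last 2 were lost under 9 and 5 of 23 alternatives. At Ms4a2 it was 1.83 (SE 0.58) for Ms4a2 -12.1, which lost its call without URE-GMP replicate 1 or 2, URE-LSK replicate 1 or 3 or WT-LSK replicate 3, with values of 1.44 to 2.80 over the alternatives. Groups of 3 libraries were too small to look for a single outlying library.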

How the results depend on the processing

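Of the calls in member regions, 33 of 47 for URE against WT in LSK, 24 of 44 in GMP, 32 of 37 for GMP against LSK in WT, 44 of 49 in URE and 14 of 19 interactions were made under every alternative that keeps the region. Leaving out 1 library gave 43 to 48, 40 to 44, 36 to 40, 46 to 48 and 15 to 22 calls in these comparisons, and 2 to 3, 1 to 2, 1 to 1, 2 to 2 and 0 to 0 called window sums. A called region changed sign only once, Hdc +37.5 for URE against WT in GMP, which reached 0.00. The cause of changes under other scalings was not tested.

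Narrower or wider definitions of the members changed the number of regions and so the counts. Within 5 kb of the gene 27 (LSK), 25 (GMP), 22 (GMP against LSK in WT), 27 (in URE) and 9 (interaction) regions were called. Of the 47 regions nearest to a member's start, 31, 28, 22, 30 and 12 were called in the same order. Over all regions 37.5%, 39.7%, 37.8%, 49.2% and 14% were called. Within 50 kb, 57 were called between GMP and LSK in WT and 75 in URE. How many regions lay within 5 or 50 kb is not given here, so those counts cannot be set against these shares. A mean CPM of at least 2 tests fewer regions. With it 26 of 50 members were called in GMP, against 28.2% of the regions tested. Between GMP and LSK in WT 21 of 50 were called, against 28.1%. Of the window sums, 7 (LSK), 5 (GMP), 7 (GMP against LSK in WT), 5 (in URE) and 3 (interaction) passed without a fold threshold. In GMP, DESeq2 and RLE gave 2 each and 5 kb windows 3, and leaving out WT-GMP replicate 1 gave 2. With 5 kb windows 0 were called between GMP and LSK in WT, 4 in URE and 1 interaction, with 50 kb windows 1 in LSK and 1 between GMP and LSK in URE, and the mean CPM filter gave 1 interaction.

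The named regions and windows that changed sign were not called in the report. In LSK, Mitf +0.0 changed to 0.0122 (DESeq2) and 0.0122 (RLE), and leaving out 1 library gave -0.12 to 0.0487. In GMP it changed to -0.0694 (TMM on promoter regions), -0.0287 (library size) and -0.0600 (loess), with -0.0392 to 0.17 when 1 library was left out. The Cpa3 window changed in GMP to -0.0803 (TMM on promoter regions) and -0.0447 (library size), with -0.0969 to 0.21 when 1 library was left out. Between GMP and LSK in URE it changed to 0.0458 (DESeq2), 0.0433 (RLE), 0.0167 (loess) and 0.00548 (groups compared only), with -0.19 to 0.12 when 1 library was left out. The Hdc window changed in GMP to 0.00887 (DESeq2), 0.00791 (RLE), 0.27 (GC offsets, and 0.27 with the replicate block), 0.10 (loess) and 0.16 (5 kb). The Il1rl1 window changed to 0.20 between GMP and LSK in URE (50 kb), and its interaction to -0.0149 (mean CPM filter) and -0.0792 (5 kb), with -0.0464 to 0.20 when 1 library was left out. With 5 kb the Mcpt8 interaction was 0.0761 and the Ms4a2 window -0.85 in WT and -1.04 in URE between GMP and LSK, and with 50 kb the Ms4a2 interaction was 0.17 and that of Prg2 -0.00213.

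With the replicate number as a block, 47, 44, 38, 48 and 20 member regions were called in the 5 comparisons, and with a block within each genotype 38, 49 and 21 for the last 3, within 1.5 times the counts without it. Whether same-numbered libraries of a genotype share a mouse could not be told from the check above.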
